A study of Mus musculus with 104 samples.

Results

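The potassium channel genes expressed in the cerebral cortex of wild type mice were described by level, by spread between mice, by line and by sex. They were taken as the gene symbols beginning with Kcn, with Kcnj8 and Kcne2 left out, that averaged at least 0.5 CPM (reads scaled to library size) over all libraries in the RefSeq gene counts. Of 95 such symbols among 24060 RefSeq genes, 76 reached this level, and 19 did not. Kcnmb1 (0.527 CPM) and Kcnj13 (0.785 CPM) lay just inside the limit, and Kcnk5 (0.440 CPM), Kcnrg (0.435 CPM) and Kcnj5 (0.426 CPM) just outside. The 76 genes comprise pore-forming subunits, auxiliary subunits and 2 noncoding transcripts, Kcnq1ot1 and Kcnd3os, which are named after the channel genes they overlap. All 76 entered the tests, among 15723 genes.

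Every mouse was a wild type control of the C57BL/6 background, aged 6 months, and its RNA came from dissected cortex. The mice fell into 13 groups of 8 (4 females and 4 males), tagged in the labels as batches with the name of a gene: Tbc1d8 and Gsg1l, in which calls were found, and Zswim6, Rgs9, Rasgef1a, Ppp1ca, Pcdh20, Morf4l1, Kdm3b, Hrk, Ece2, Dach1 and Arpp19. The design text gives 8 mice per line, so each group is called a line here. A line name thus stands for a group of control animals and not for a mutation, no group carries an altered gene or received an agent, and line and batch cannot be told apart. No label says which mice were littermates.

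Potassium channels let potassium leave the cell, which sets the resting potential, ends the action potential and limits repeated firing. Voltage-gated (Kv) subunits assemble as tetramers, often with auxiliary beta subunits or calcium-binding KChIP proteins. Inward rectifiers (Kir) and leak channels hold the resting potential, and calcium- or sodium-activated channels act after activity. In the cortex, neurons hold most of these channels, while Kcnj10 (Kir4.1) is best known as the potassium-buffering channel of astrocytes. In bulk tissue, fewer cells of a type and less RNA per cell cannot be told apart.

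Library totals over RefSeq genes had a median of 28.4 M reads and ran up to 33.5 M. Kdm3b female replicate 22 held 3.39 M and the next lowest library 23.9 M. Xist or Y-linked reads went against the sex label in 3 libraries, which stayed in under their labels. Rasgef1a male replicate 40 (0 Y-linked and 32425 Xist reads) and Rgs9 female replicate 43 (4479 and 3) went against it in both. Rasgef1a female replicate 39 lacked Xist (2 reads) but also held 0 Y-linked reads, so only Xist went against its label. Plate 1 held 96 libraries and plate 2 held 8. Astrocyte markers (Aqp4, Slc1a3 and 4 others) summed to 4901 to 7215 CPM and excitatory neuron markers (Slc17a7, Camk2a and 4 others) to 7804 to 9277 CPM. Erythroid markers summed to at most 0.0943 CPM.

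RefSeq promoters on GRCm38.p6 were found for 54 of the 76 genes. The 250 bases before the first listed start are shown for Kcnt2, Kcnip1, Kcnip2, Kcnh7 and Kcna2, which are among the genes that differed between lines. Capitals mark the GC box, GGGCGG or its reverse complement CCGCCC, a match to letters and not a measured site.
Kcnt2 (chr1:140245468-140245717, plus strand): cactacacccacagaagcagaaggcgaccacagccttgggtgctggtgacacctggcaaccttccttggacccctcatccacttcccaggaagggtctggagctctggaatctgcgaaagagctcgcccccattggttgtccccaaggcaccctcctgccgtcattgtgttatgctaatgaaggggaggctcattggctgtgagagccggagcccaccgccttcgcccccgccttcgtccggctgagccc
Kcnip1 (chr11:33993194-33993443, minus strand): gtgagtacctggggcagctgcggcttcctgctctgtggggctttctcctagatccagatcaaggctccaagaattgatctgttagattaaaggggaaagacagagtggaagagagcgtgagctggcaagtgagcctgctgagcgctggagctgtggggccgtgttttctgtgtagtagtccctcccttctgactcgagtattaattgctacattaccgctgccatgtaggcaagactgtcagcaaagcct
Kcnip2 (chr19:45816064-45816313, minus strand): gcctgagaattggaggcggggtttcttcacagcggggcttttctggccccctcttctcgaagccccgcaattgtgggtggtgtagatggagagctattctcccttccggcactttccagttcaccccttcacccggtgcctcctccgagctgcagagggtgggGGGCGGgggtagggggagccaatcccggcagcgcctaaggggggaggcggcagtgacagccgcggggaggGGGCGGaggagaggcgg
Kcnh7 (chr2:63184288-63184537, minus strand): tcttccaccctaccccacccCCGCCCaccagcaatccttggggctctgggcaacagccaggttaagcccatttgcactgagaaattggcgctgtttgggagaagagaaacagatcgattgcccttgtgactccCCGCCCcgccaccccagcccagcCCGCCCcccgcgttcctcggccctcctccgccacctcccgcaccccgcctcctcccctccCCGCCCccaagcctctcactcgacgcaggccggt
Kcna2 (chr3:107101317-107101566, plus strand): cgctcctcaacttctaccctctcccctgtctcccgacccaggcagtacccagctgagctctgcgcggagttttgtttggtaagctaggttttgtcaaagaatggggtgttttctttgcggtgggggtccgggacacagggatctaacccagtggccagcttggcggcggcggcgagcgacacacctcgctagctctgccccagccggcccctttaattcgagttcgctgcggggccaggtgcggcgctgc
Kcnip2 held 2 GC boxes and Kcnh7 held 4, while none lay in the windows of Kcnt2, Kcnip1 and Kcna2. Kcnip1 has 3 starts in the table, of which the first is shown. A GC box on either strand stood in 27 of 54 potassium channel promoters (50%), against 32.9% of all 27025 promoters. The median GC content was 61.4% in the 54 promoters and 52% in all. Of the 12 genes called between lines with an entry, 6 held a GC box (Kcnab1, Kcnc1, Kcnh5, Kcnh7, Kcnip2 and Kcnma1), a share equal to that of the 54. The TATA box letters TATAAA were in 3.7% of the 54 and 13% of all promoters, the E-box CACGTG in 5.56% and 6.05%, and the cAMP response element half-site TGACGT in 7.41% and 6.56%. The C/EBP-ATF composite TGATGNAA stood in 0 of the 54 and 3.53% of all.

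Levels were compared between genes as FPKM, the values that the authors deposited after scaling by gene length and library depth. They are given as mean ± SD over all libraries (52 females and 52 males). Of the 76 genes, 41 averaged at least 10 FPKM, 27 lay between 1 and 10 FPKM and 8 lay under 1 FPKM, with a median of 12.8 FPKM. The 10 highest held 41.8% of the summed level of 1659 FPKM. The beta subunit gene Kcnab2 was highest at 151 ± 7.36 FPKM. The inward rectifier Kcnj9 followed at 74.8 ± 3.48 FPKM, and the KChIP gene Kcnip2 at 69.0 ± 5.74 FPKM. These last levels overlapped with that of the beta subunit gene Kcnab3, 68.7 FPKM.

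**Figure D1:**
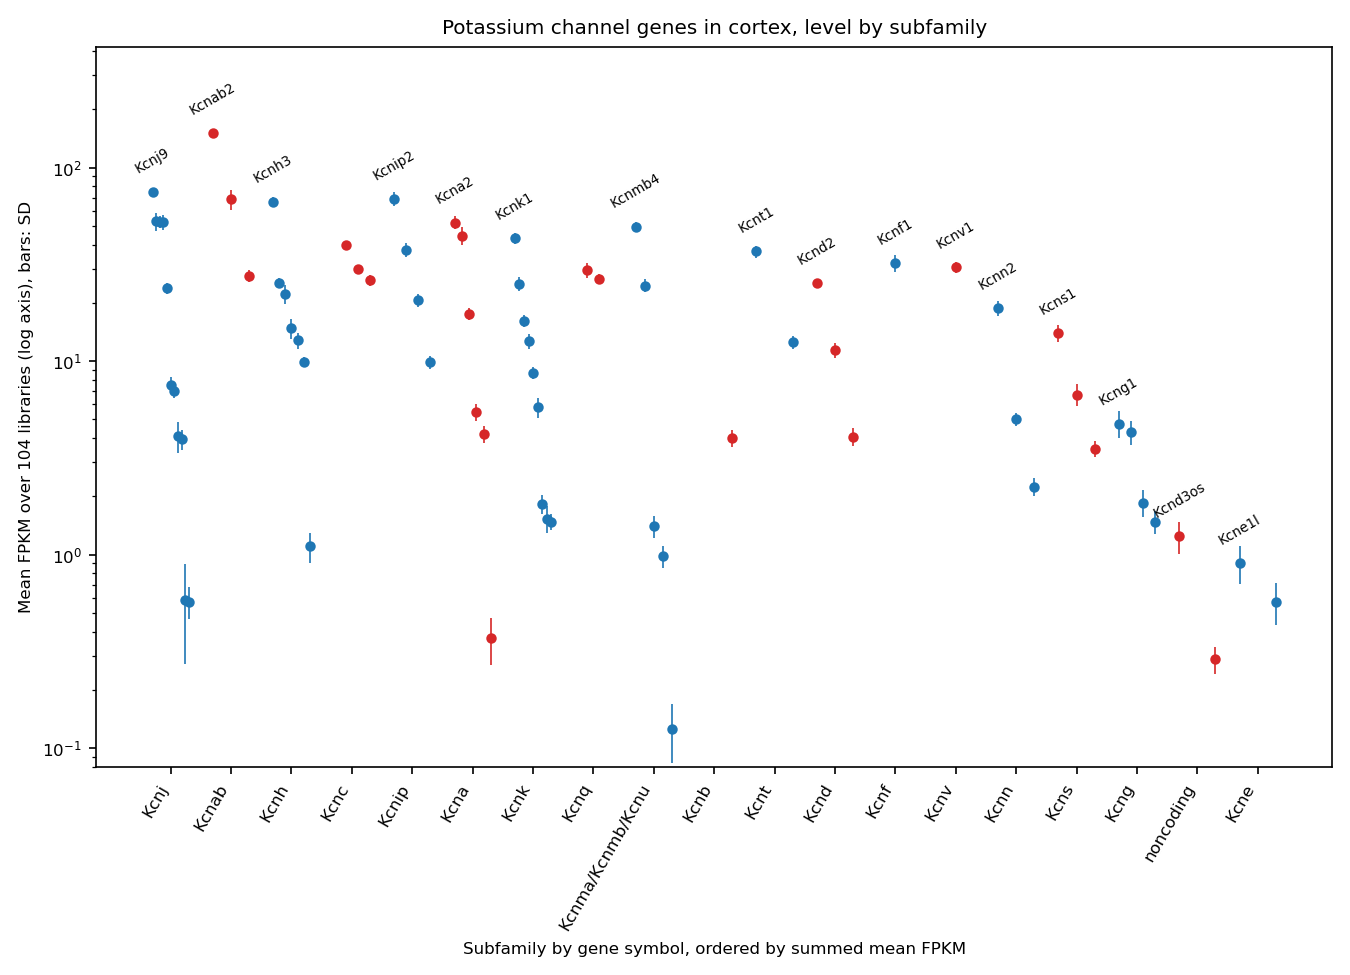
Mean level in FPKM (log axis) of the potassium channel genes reported here over all libraries, with bars for the SD, grouped by subfamily in the order of summed level; the 2 colours only separate neighbouring subfamilies. The highest gene is named in the subfamilies where it is reported, and the widest range within a group lies between Kcnmb4 at 49.6 and Kcnmb1 at 0.126 FPKM.

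The 11 inward rectifier (Kcnj) genes had the largest summed level, 280 FPKM. Kcnj9 and Kcnj3 (52.3 FPKM), subunits of the G protein-gated channel, lay beside Kcnj10 (52.8 FPKM) and Kcnj4 (52.4 FPKM), and the neighbours among the last 3 did not differ beyond their SDs of 3.52 to 5.79 FPKM. Kcnj6, another G protein-gated subunit, was at 6.99 FPKM, and Kcnj14 was lowest at 0.571 FPKM. The beta subunits (Kcnab1 to Kcnab3), which bind Kv1 channels inside the cell, summed to 247 FPKM, with Kcnab1 lowest at 27.5 FPKM.

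Among the pore-forming Kv subunits, the 7 Kcnh genes summed to 153 FPKM, led by Kcnh3 at 66.7 FPKM and with Kcnh6 lowest at 1.102 FPKM. The 4 Kcnc (Kv3) genes, known for fast repolarisation in rapidly firing neurons, summed to 150 FPKM, with Kcnc4 lowest at 26.2 FPKM. The 6 Kcna (Kv1) genes summed to 124 FPKM. Kcna2 (51.99 ± 4.05 FPKM) and Kcna1 (44.5 ± 4.86 FPKM), the axonal subunits, carried most of it, and Kcna5 was lowest at 0.370 FPKM. The 4 Kcnq (Kv7) genes of the M current summed to 102 FPKM. Kcnb2 was at 3.99 FPKM. In the Kcnd (Kv4) genes of the A-type current, Kcnd2 led at 25.3 FPKM and Kcnd1 was at 4.07 FPKM, and their KChIP partners (Kcnip1 to Kcnip4) summed to 137 FPKM, with Kcnip1 lowest at 9.85 FPKM.

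Modifier subunits, which do not form channels alone, were lower with 2 exceptions. Kcnf1 (32.1 FPKM) and Kcnv1 (30.6 FPKM) lay above every Kcns gene (Kcns1 13.97 to Kcns3 3.51 FPKM) and every Kcng gene (Kcng1 4.75 to Kcng2 1.48 FPKM). The 9 leak channel (Kcnk) genes summed to 117 FPKM, from Kcnk1 at 43.2 to Kcnk6 at 1.48 FPKM. Among the large-conductance channel genes, the neuronal beta subunit Kcnmb4 was at 49.6 FPKM and the pore gene Kcnma1 at 24.6 FPKM. The sodium-activated channels Kcnt1 and Kcnt2 were at 36.9 and 12.5 FPKM, and the small-conductance channels ran from Kcnn2 at 18.7 to Kcnn3 at 2.25 FPKM. Kcne1l (0.905 FPKM), Kcne4 (0.572 FPKM), Kcnd3os (1.25 FPKM) and Kcnq1ot1 (0.287 FPKM) closed the list. Ordered by CPM, which is not scaled by length, 11 of the 17 subfamilies with more than 1 gene kept their highest gene. How reads were assigned by strand is not given in the sources used here, so those of Kcnd3os and Kcnq1ot1 may be mixed with those from the genes they overlap.

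From here on, CPM values carry the TMM scaling of edgeR and are compared only between libraries. The spread between mice was the SD of log2 CPM within line and sex. Its median was 0.13 in the 76 genes and 0.12 in all 15723 genes tested. Among genes of at least 5 CPM, the medians were 0.12 in 63 potassium channel genes and 0.09 in 11412 genes. The line means spanned a median range of 0.18 (log2) in those 63 genes and 0.13 in the 11412.

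Among the genes of at least 5 CPM, Kcnj9 varied least, with an SD of 0.06 (log2) and 219 to 277 CPM over all libraries. It was followed by Kcnmb4 (45.2 to 57.4 CPM), Kcnc1 (326 to 421 CPM), Kcnh3 (203 to 274 CPM) and Kcnc2 (161 to 212 CPM). The noncoding Kcnq1ot1 varied most, with an SD of 0.24 and 10.2 to 38.7 CPM. After it came Kcng3, the inward rectifier Kcnj2, Kcng1 and Kcng4, with SDs of 0.23, 0.23, 0.22 and 0.21. The Kcng genes, modifiers of Kv2 channels, thus supplied 3 of the 5 widest.

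**Figure D2:**
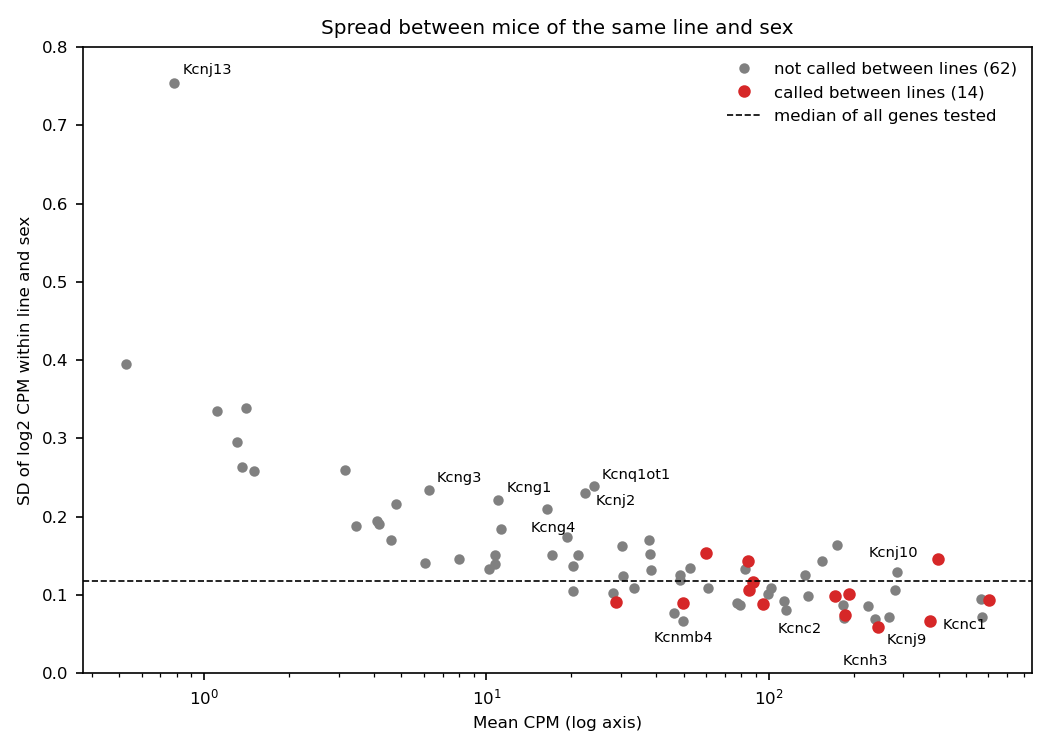
SD of log2 CPM between mice of the same line and sex (y axis) against mean CPM (log axis) for the 76 potassium channel genes, with the 14 called between lines in red and the median of all genes tested, 0.12, as a dashed line. The spread widened toward low CPM, and Kcnj13 stood apart at 0.75.

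Kcnj13 (Kir7.1), a channel known from choroid plexus epithelium, had the widest spread of all at 0.75 (log2). Its median was 0.736 CPM and its highest value 3.11 CPM, in Rasgef1a male replicate 37. The same library held 286 CPM of the choroid plexus transcript Ttr, against a median of 0.316 CPM and at most 20.1 CPM in any other library. The next values of Kcnj13, 1.70 and 1.67 CPM in Zswim6 female replicate 50 and Rgs9 female replicate 44, stood beside 0.925 and 1.01 CPM of Ttr. The part of choroid plexus RNA in the level of Kcnj13 was not tested.

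A few libraries stood apart in the potassium channel genes. Gsg1l male replicate 13 held the lowest CPM of all libraries for 15 of the 76 genes and the highest for 5, beside 8.56% lowest and 7.89% highest of all genes. Its lowest genes included Kcnh7, Kcnq3, Kcnma1, Kcnj6, Kcnt2 and Kcnq1ot1. Zswim6 female replicate 50 was lowest for 9 genes, Kcna1, Kcnc1, Kcnab2 and Kcnt1 among them, and highest for 4, beside 2.26% lowest and 2.28% highest of all genes. Rgs9 female replicate 44 was lowest for 7, including Kcnab3 and Kcng4, and highest for 4, beside 1.44% and 1.64%. The median absolute deviation of the 76 genes from their median over all libraries was 0.17 (log2) in Zswim6 female replicate 50 and 0.18 in Rgs9 female replicate 44, against 0.09 and 0.10 over all genes. In Gsg1l male replicate 13 it was 0.17, against 0.15 over all genes, so that library stood apart over all genes as well.

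Subunits that assemble or act together were compared across mice after the mean of each line and sex was removed from log2 CPM. In 20 such pairs over all libraries, 13 correlations passed a two-sided permutation test (100000 draws within line and sex, Benjamini-Hochberg over 20 pairs), and 9 of these were positive. The pairs had a median Pearson r of 0.23. Over all 2850 pairs of the 76 genes, the median r was 0.02 and the range -0.66 to 0.86. The points of each pair share their library, and so its depth and cell makeup. Cell type scores were the mean log2 CPM of the oligodendrocyte, striatal, astrocyte and interneuron markers. With these scores removed as well, 8 of the 13 passed.

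The axonal partners Kcna1 and Kcna2 varied together, with r = 0.67 and Spearman's rho = 0.61 (adjusted permutation p = 0.0001 for both, from the smallest p the draws can give, 1e-05), and r = 0.65 without the 2 libraries farthest from the median of Kcna1. The Kv3 subunits Kcnc1 and Kcnc2 had r = 0.43 and rho = 0.38 (adjusted permutation p = 0.000533 and 0.00183), which became r = 0.14 with the cell type scores removed (adjusted permutation p = 0.315).

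Within the A-type channel, the pore gene Kcnd2 correlated positively with one KChIP gene and negatively with another. Kcnd2 and Kcnip4 had r = 0.45 and rho = 0.40 (adjusted permutation p = 0.00048 and 0.00156), and r = 0.39 without the 2 farthest libraries. Kcnd2 and Kcnip2 had r = -0.44 and rho = -0.38 (adjusted permutation p = 0.0012 and 0.00183), and r = -0.38 without the 2 farthest. Within plate 1 these were 0.46 and -0.51.

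Further pairs passed in the positive direction. Kcnh1 with Kcnh5 had r = 0.46 and rho = 0.43 (adjusted permutation p = 0.0004 and 0.00135). Kcnj3 with Kcnj9 had r = 0.37 and rho = 0.33 (adjusted permutation p = 0.00387 and 0.00768), and Kcna2 with Kcnab2 r = 0.36 and rho = 0.33 (adjusted permutation p = 0.00609 and 0.00625). In the negative direction, the large-conductance pair Kcnma1 with Kcnmb4 had r = -0.31 and rho = -0.28 (adjusted permutation p = 0.038 and 0.0207). Kcnd2 with Kcnd3 had r = -0.27 and rho = -0.26 (adjusted permutation p = 0.0255 and 0.0294), and Kcnk2 with Kcnk4 r = -0.26 and rho = -0.22 (adjusted permutation p = 0.0246 and 0.0523). Within plate 1, Kcna2 with Kcnab2, Kcnk2 with Kcnk4 and Kcnma1 with Kcnmb4 no longer passed (adjusted permutation p = 0.0634, 0.0668 and 0.121). With the cell type scores removed, Kcna2 with Kcnab2 came to r = 0.05 (adjusted permutation p = 0.689) and Kcnk2 with Kcnk4 to r = -0.11 (adjusted permutation p = 0.405). Kcnd2 with Kcnd3 (r = -0.22) and Kcnma1 with Kcnmb4 (r = -0.28) no longer passed there either (adjusted permutation p = 0.126 and 0.0716). The remaining 7 pairs did not pass by Pearson's r. By Spearman's rho, Kcnq3 with Kcnq5 (r = 0.25, rho = 0.33) and the glial inward rectifiers Kcnj10 with Kcnj16 (r = 0.21, rho = 0.28) passed (adjusted permutation p = 0.00768 and 0.0237).

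Lines were compared next, by an F-test over all 13 lines with sex as a term. Between lines, 14 of the 76 potassium channel genes (18.4%) passed edgeR's quasi-likelihood test at a Benjamini-Hochberg adjusted p under 0.05, where 9.61% of all genes tested did. They were Kcnt2 (adjusted p = 7.96e-06), Kcnip1, Kcna1, Kcnip2, Kcnq3, Kcnh7, Kcna2, Kcnq5, Kcnj3, Kcnc1, Kcnab1, Kcnma1, Kcnj9 and Kcnh5 (adjusted p = 0.0316). Each of the 14 was also called in the Tbc1d8 line or the Gsg1l line against the mean of the other 12. Without these 2 lines, 0 of the 76 passed edgeR's test, where 0.121% of all genes passed. At an unadjusted p under 0.05 there were 9 of the 76, beside 8.95% of all genes.

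In the Tbc1d8 line, 15 of the 76 genes were called by edgeR's quasi-likelihood test against the mean of the other 12 lines (19.7%, beside 12.4% of all genes). Of these, 13 fell (17.1%, beside 6.79% of all genes) and 2 rose (2.63%, beside 5.66%). In the Gsg1l line 14 were called (18.4%, beside 10.4%), of which 11 fell (14.5%, beside 5.58%) and 3 rose (3.95%, beside 4.86%). The median log2 difference of the 76 genes was -0.03 in both lines, and over all genes 0.00 in Tbc1d8 and 0.01 in Gsg1l. The comparisons share 11 lines as controls, and each line is also among the controls of the other, so their values are given side by side.

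In each of the other 11 lines, 0 of the 76 genes were called by edgeR's quasi-likelihood test, nor by limma on log2(FPKM + 1). Of all genes, 0.165% were called in Dach1, 0.108% in Rasgef1a, 0.0445% in Rgs9, 0.0318% in Morf4l1, 0.0127% in Ece2 and in Pcdh20, 0.00636% in Arpp19 and 0% in Hrk, Kdm3b, Ppp1ca and Zswim6. At an unadjusted p under 0.05, edgeR gave between 0 genes (Hrk and Pcdh20) and 16 (Morf4l1) of the 76. Over all genes that share was 5.02% in Hrk, 2.83% in Pcdh20 and 10.4% in Morf4l1.

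The Gsg1l calls rest in part on single libraries. Without Gsg1l male replicate 13 (left out after its values were seen), 6 of the 76 were called. Over all genes tested, 1040 were called then, against 1641 with all libraries. Kcna2, Kcnh7, Kcnj3, Kcnj6, Kcnj9, Kcnma1, Kcnq3 and Kcnq5 were among those that no longer passed. Without Gsg1l female replicate 13, 7 of the 76 were called, beside 1004 of all genes tested, and Kcna2, Kcnab1, Kcnj3, Kcnj9, Kcnq5 and Kcnt1 were among those lost. Kcna1, Kcnip2 and Kcnt2 were called whichever of the 8 Gsg1l libraries was left out. In the Tbc1d8 line, 12 of the 15 were called whichever of its 8 libraries was left out, and Kcnh5, Kcnip4 and Kcnmb4 were not.

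**Figure D3:**
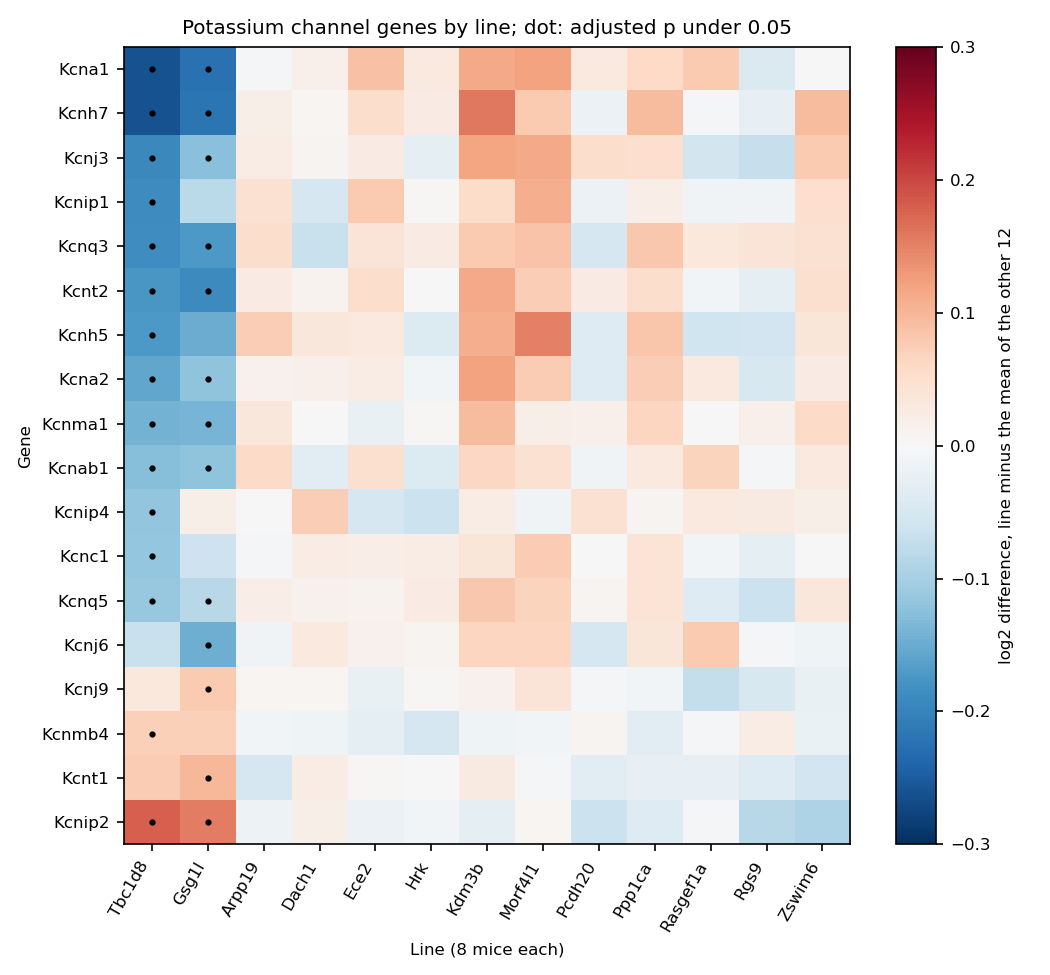
Log2 difference of each line (8 mice) from the mean of the other 12 lines (colour) for 18 of the 19 potassium channel genes called in Tbc1d8 or Gsg1l, with a dot where the adjusted p of edgeR's test was under 0.05. Dots stand only in the Tbc1d8 and Gsg1l columns, and 10 genes carry a dot in both.

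The sodium-activated channel gene Kcnt2 ranged from 39.9 to 49.002 CPM in Tbc1d8 (median 44.4), from 35.2 to 48.6 CPM in Gsg1l (median 44.7) and from 42.7 to 56.7 CPM in the 88 libraries of the other 11 lines (median 50.5). All 8 libraries of each line lay below the median of the others, though the ranges overlapped. The difference was -0.17 ± 0.03 (SE, log2) in Tbc1d8 and -0.19 ± 0.03 in Gsg1l (edgeR adjusted p = 0.000139 and 4.92e-05), which is -11.4% and -12.4%. Kcnt1, its close relative, was not lower. It had 221 to 255 CPM in Gsg1l (median 236) and 179 to 251 CPM in the other 11 lines (median 223), and rose in Gsg1l by 0.10 ± 0.03 (edgeR adjusted p = 0.0217). In Tbc1d8 the difference of Kcnt1 was 0.08, which did not pass (edgeR adjusted p = 0.0951).

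The axonal Kv1 genes fell in both lines. Kcna1 had 294 to 358 CPM in Tbc1d8 (median 340), 300.4 to 425 CPM in Gsg1l (median 336) and 285 to 493 CPM in the other 11 lines (median 411). All 8 Tbc1d8 libraries and 7 of 8 Gsg1l libraries lay below the median of the others. The log2 differences were -0.26 ± 0.05 and -0.22 ± 0.05 (edgeR adjusted p = 9.37e-05 and 0.00123). Kcnh7 fell by as much within these SEs. Kcna2 had 508 to 593 CPM in Tbc1d8 (median 539), 448 to 659 CPM in Gsg1l (median 545) and 510 to 693 CPM in the others (median 614). Its differences were -0.16 ± 0.04 and -0.12 ± 0.04 (edgeR adjusted p = 0.000886 and 0.016), and -0.08 in Gsg1l without male replicate 13 (adjusted p = 0.164). Kcnab1, a beta subunit of these channels, had 78.4 to 95.6 CPM in Tbc1d8 and 78.5 to 115 CPM in Gsg1l, against 81.5 to 109 CPM in the others, and differed by -0.13 and -0.12 (edgeR adjusted p = 0.0032 and 0.00748). Within plate 1 the call of Kcnab1 in Tbc1d8 was lost (edgeR adjusted p = 0.118).

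**Figure D4:**
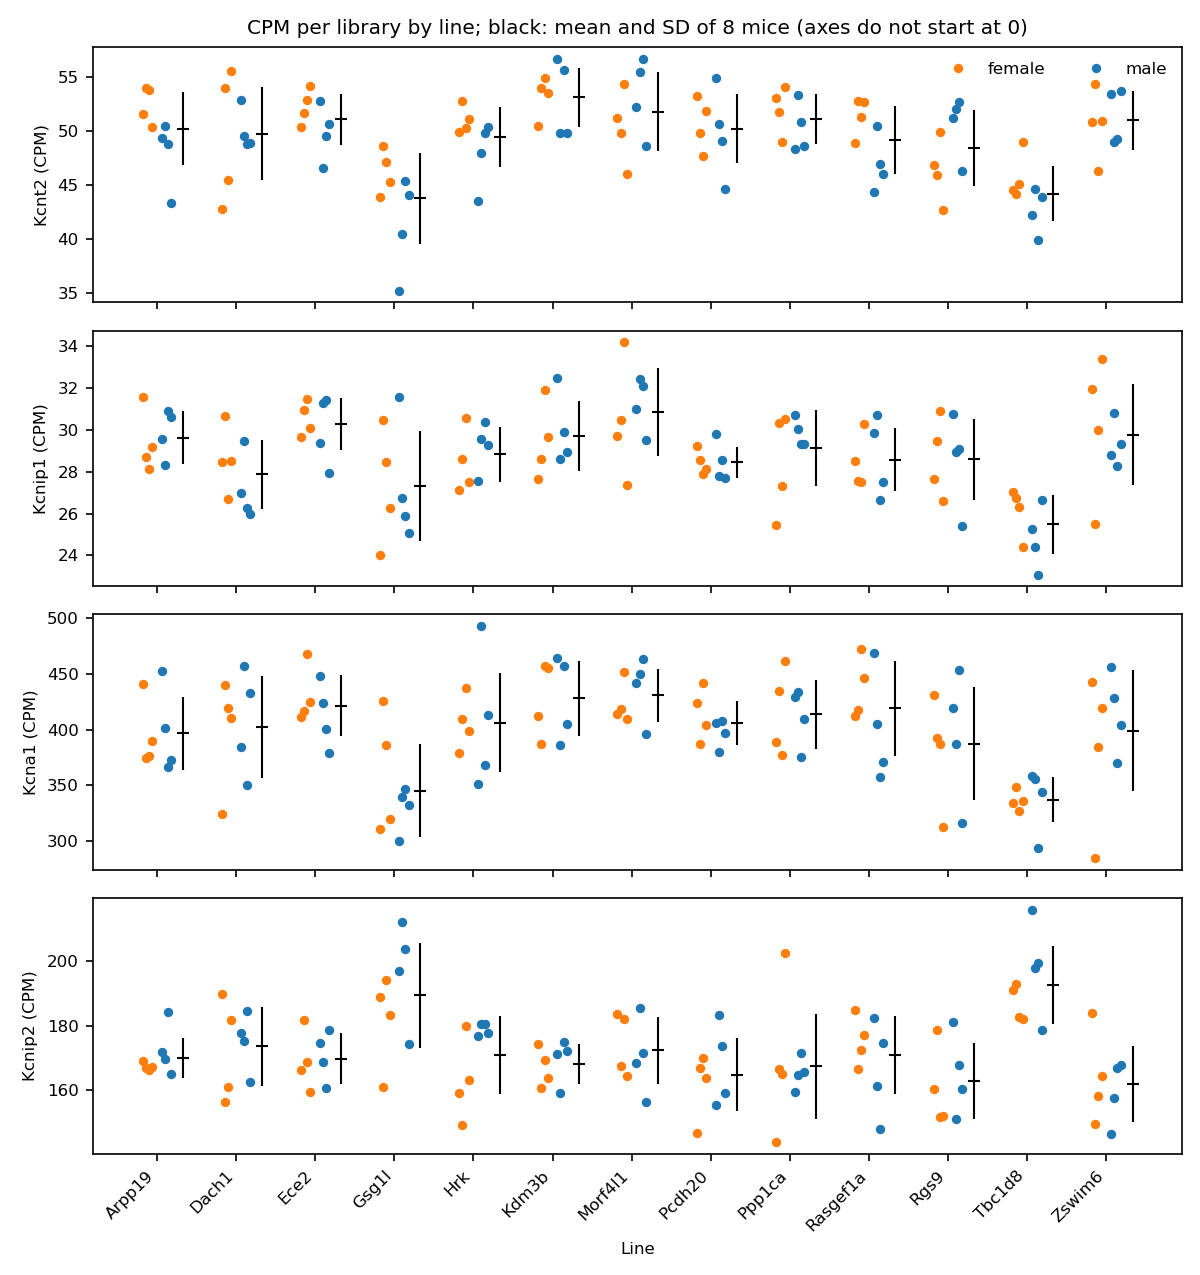
CPM in each library for Kcnt2, Kcnip1, Kcna1 and Kcnip2, the 4 genes with the smallest p between lines, by line and sex, with the mean and SD of 8 mice in black; the axes do not start at 0. The Tbc1d8 libraries sit low for Kcnt2, Kcnip1 and Kcna1 and high for Kcnip2. Most Gsg1l libraries lie on the same side for Kcnt2, Kcna1 and Kcnip2, while Kcnip1 was not called there (edgeR adjusted p = 0.0985). In each panel both lines overlap with other lines.

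The KChIP genes were called in both directions. Kcnip2 had 179 to 216 CPM in Tbc1d8 (median 192), 161 to 212 CPM in Gsg1l (median 192) and 144 to 202 CPM in the other 11 lines (median 168). All 8 Tbc1d8 libraries and 7 of 8 Gsg1l libraries lay above the median of the others. Kcnip2 rose by 0.18 ± 0.03 and 0.15 ± 0.03 (log2, edgeR adjusted p = 7.42e-05 and 0.0012), or 13.2% and 11.2%, the largest rise in each line among the called genes. Kcnip1 had 23.1 to 27.03 CPM in Tbc1d8 (median 25.8), 24.03 to 31.6 CPM in Gsg1l (median 26.5) and 25.4 to 34.2 CPM in the others (median 29.3). It fell by 0.19 in Tbc1d8 (edgeR adjusted p = 1.29e-05), and its difference of -0.08 in Gsg1l did not pass (edgeR adjusted p = 0.0985). Kcnip4 had 50.9 to 61.7 CPM in Tbc1d8 against 50.1 to 72.2 CPM in the 11 lines and differed by -0.12 there (edgeR adjusted p = 0.028), and in Gsg1l by 0.02 (adjusted p = 0.829). The call of Kcnip4 was lost with limma on log2(FPKM + 1) and within plate 1. No Kcnd gene, the pore partners of the KChIPs, was called between lines.

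Genes of the M current and of the Kcnh family fell as well. Kcnq3 had 68.6 to 84.8 CPM in Tbc1d8 (median 74.6), 46.5 to 92.2 CPM in Gsg1l (median 78.7) and 72.2 to 97.8 CPM in the others (median 86.8). It differed by -0.19 and -0.17 (edgeR adjusted p = 0.000449 and 0.00179), and by -0.09 in Gsg1l without male replicate 13 (adjusted p = 0.0709). Kcnq5 differed by -0.11 and -0.08 (edgeR adjusted p = 0.00158 and 0.0322).

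Kcnh7, of the Erg type, had 62.8 to 78.5 CPM in Tbc1d8 (median 71.4), 39.8 to 91.3 CPM in Gsg1l (median 75.5) and 65.0 to 102 CPM in the others (median 86.6). All 8 Tbc1d8 libraries lay below the median of the others. Its differences were -0.26 ± 0.05 and -0.22 ± 0.05 (edgeR adjusted p = 0.000185 and 0.00243). Without Gsg1l male replicate 13 the second was -0.13 (adjusted p = 0.0724). Kcnh5, of the ether-a-go-go type, differed by -0.17 in Tbc1d8 (edgeR adjusted p = 0.0294) and by -0.15 in Gsg1l, which did not pass (adjusted p = 0.0729).

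Among the inward rectifiers, the G protein-gated subunits were called in both directions. Kcnj3 had 71.2 to 83.0 CPM in Tbc1d8 (median 77.3) and 67.3 to 90.6 CPM in Gsg1l (median 82.4), against 70.1 to 105 CPM in the others (median 90.2), and differed by -0.19 and -0.13 (edgeR adjusted p = 0.00086 and 0.0463). Kcnj6 differed by -0.15 in Gsg1l (edgeR adjusted p = 0.0194) and, without male replicate 13, by -0.08 (adjusted p = 0.269). Kcnj9 had 236 to 277 CPM in Gsg1l (median 256) against 219 to 266 CPM in the 11 lines (median 243) and rose there by 0.08 (edgeR adjusted p = 0.00818). Without male replicate 13 that value was 0.06 (adjusted p = 0.0657).

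Of the large-conductance channel, the pore gene Kcnma1 had 162 to 192 CPM in Tbc1d8 (median 176) and 118 to 199 CPM in Gsg1l (median 181), against 165 to 231 CPM in the others (median 195). It differed by -0.14 in both lines (edgeR adjusted p = 0.00703 and 0.00925), and by -0.07 in Gsg1l without male replicate 13 (adjusted p = 0.201). Its beta subunit gene Kcnmb4 had 49.8 to 55.1 CPM in Tbc1d8 against 45.2 to 55.2 CPM in the 11 lines and rose there by 0.07 (edgeR adjusted p = 0.0442). The value of Kcnmb4 in Gsg1l was also 0.07, which did not pass (adjusted p = 0.0548). Kcnc1 had 334 to 362 CPM in Tbc1d8 against 326 to 421 CPM in the 11 lines and fell there by 0.12 (edgeR adjusted p = 0.000221).

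The potassium channel genes lower in the 2 lines were mostly long on the chromosome. The genomic span from first to last base of the gene had a median of 364 kb in the 13 genes that fell in Tbc1d8 and 32.9 kb in the 61 not called. In Gsg1l the medians were 300.3 kb in the 11 that fell and 36.6 kb in the 62 not called. Over all genes with a span (14876 of 15723), those that fell had medians of 33.4 kb in Tbc1d8 and 46.3 kb in Gsg1l, and those not called 23.2 kb in both. Kcna1 (9.34 kb) and Kcna2 (24.1 kb) fell although short. The length of the transcript that FPKM implies was alike, with medians of 3.88 kb in the 14 genes called between lines and 3.58 kb in the other 62. The level was not alike, with medians of 28.5 FPKM in the 14 and 7.26 FPKM in the 62. Whether the called genes were set apart by span or by level was not tested.

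Split at 200 kb, a bound chosen after the values were seen, 16 of the 76 genes were long. Their median log2 difference was -0.12 in Tbc1d8 and -0.10 in Gsg1l, and that of the 60 shorter genes -0.01 and -0.02. Over all genes, the 912 long ones had medians of -0.02 and -0.04. In Gsg1l male replicate 13 the 16 long genes lay at a median of -0.24 from their median over all libraries and the 60 others at -0.04. Over all genes in that library, the 912 long ones lay at a median of -0.21 and the 13964 shorter ones at 0.02. Without that library, the median of the 16 in Gsg1l was -0.07.

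Cell type markers were read beside these results. Of 6 excitatory neuron markers, Slc17a7 and Camk2a were higher in both lines. The summed level of the 6 had a median of 8746 CPM in Tbc1d8 (8291 to 9277), 8888 CPM in Gsg1l (8095 to 9158) and 8339 CPM in the other 11 lines (7804 to 8975). Of 7 interneuron markers, Slc32a1 alone was called and was lower in both lines. Their sums had medians of 984 CPM (904 to 1037), 978 CPM (929 to 1056) and 1008 CPM (868 to 1097). Of 6 astrocyte and 7 oligodendrocyte markers, 0 were called in either line. The oligodendrocyte sums nonetheless had medians of 1986 CPM in Tbc1d8 (1822 to 2208) and 1927 CPM in Gsg1l (1739 to 2458) against 2185 CPM in the other 11 lines (1438 to 2628), and the log2 difference of each of the 7 markers was below 0 in both lines. Among markers of neighbouring regions, Slc17a6, a thalamic marker, differed by -0.15 in both lines (edgeR adjusted p = 0.00498 and 0.00638). Ppp1r1b, a striatal marker, rose by 0.15 in Tbc1d8 and 0.18 in Gsg1l (edgeR adjusted p = 0.000808 and 7.13e-05).

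With marker scores as covariates (mean log2 CPM of the oligodendrocyte, striatal, astrocyte and interneuron markers), 12 of the 76 genes were called between lines. In Tbc1d8 14 were called, and in Gsg1l 12. Excitatory neuron and thalamic markers were not part of these scores. Kcnj9 and Kcnma1 were then no longer called between lines (edgeR adjusted p = 0.183 and 0.0563). Kcnmb4 was lost in Tbc1d8 (adjusted p = 0.147), and Kcnj6 and Kcnj9 were lost in Gsg1l (edgeR adjusted p = 0.0869 and 0.151).

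Proteins that bind or anchor potassium channels, outside the Kcn symbols, gave 5 of 20 tested genes called between lines, beside 9.61% of all genes. In Tbc1d8, 3 fell (beside 6.79% of all genes) and 0 rose: Lgi2, a secreted ligand, by 0.30 (log2, edgeR adjusted p = 6.34e-05), Adam23, a receptor of such ligands, by 0.16 (adjusted p = 0.00207), and Ank3, the ankyrin that gathers channels at the axon initial segment, by 0.11 (adjusted p = 0.00505). In Gsg1l, 3 fell (beside 5.58%) and 0 rose: Ank3 by 0.12 (edgeR adjusted p = 0.00274), Lgi2 by 0.16 (adjusted p = 0.0427) and Lrrc38, an auxiliary protein of large-conductance channels, by 0.29 (adjusted p = 0.00583). Dpp6 and Dpp10, auxiliary proteins of Kv4 channels, and Dlg4, a scaffold, were not called in either line.

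Between the sexes, with line as a term, 11 of the 76 potassium channel genes were called by edgeR's quasi-likelihood test (14.5%, beside 8.57% of all genes). Of these, 5 were higher in females (6.58%, beside 4.07%) and 6 higher in males (7.89%, beside 4.5%). The differences ran from -8.62% (Kcnab3) to 11.6% (Kcnj10), female against male, and the ranges of the sexes overlapped for each of the 11. The median log2 difference, female minus male, was 0.01 in the 76 genes and 0.00 in all genes.

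The astrocyte channel gene Kcnj10 had the smallest p. It ranged from 237 to 363 CPM in 52 females (median 302) and from 242 to 374 CPM in 52 males (median 267). Of the females, 43 lay above the median of the males, and the female mean was higher in 13 of 13 lines. The difference was 0.16 ± 0.02 (SE, log2; edgeR adjusted p = 1.51e-06). Its partner Kcnj16 was not called. Of 6 astrocyte markers, 0 were called for sex, and their summed level had a median of 5946 CPM in females (5262 to 6562) and 5836 CPM in males (4901 to 7215). Of 7 oligodendrocyte markers, 2 were higher in females, with summed medians of 2215 CPM (1438 to 2628) and 2102 CPM (1713 to 2562). Gpr17, an oligodendrocyte precursor marker, and the thalamic marker Slc17a6 were higher in females by 0.18 and 0.13 (log2, edgeR adjusted p = 2.53e-05 and 3.17e-06). With the same marker scores as covariates as between lines, Kcnj10 was called between the sexes at an edgeR adjusted p of 2.81e-05.

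**Figure D5:**
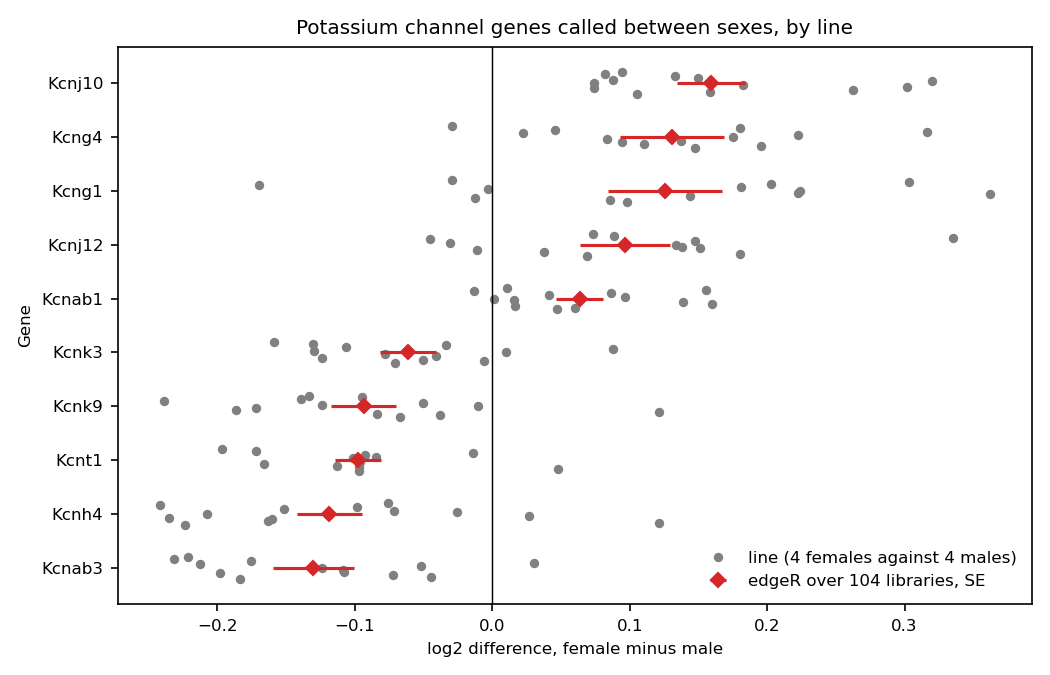
Log2 difference, female minus male, for 10 of the 11 potassium channel genes called between the sexes; grey points are the 13 lines (4 females against 4 males each) and red diamonds the edgeR estimate over all libraries with its SE. Every point of Kcnj10 lies above 0.

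The other genes higher in females were a beta subunit, another inward rectifier and modifiers. Kcnab1 had a median of 98.0 CPM in females (78.5 to 115) and 94.7 CPM in males (78.4 to 105), a difference of 0.06 (edgeR adjusted p = 0.00878). Kcng4 had medians of 17.2 and 16.1 CPM and a difference of 0.13 (adjusted p = 0.0168), higher in females in 12 of 13 lines. Kcng1 (0.13, edgeR adjusted p = 0.0425) and the inward rectifier Kcnj12 (0.10, adjusted p = 0.0478) lay near the threshold. Both were lost without the 3 libraries that went against their sex label (adjusted p up to 0.0724 for Kcnj12). Kcng1 also failed within plate 1 (adjusted p = 0.123).

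Higher in males were 6 genes of different roles. Kcnt1 ranged from 179 to 244 CPM in females (median 217) and from 206 to 269 CPM in males (median 231), and was higher in males in 12 of 13 lines. Its difference was -0.10 ± 0.02 (edgeR adjusted p = 1.59e-05). Kcnh4, a Kcnh family channel, had medians of 45.96 CPM in females and 50.3 CPM in males and a difference of -0.12 ± 0.02 (adjusted p = 0.000298). The beta subunit Kcnab3 had medians of 166 and 183 CPM and a difference of -0.13 ± 0.03 (adjusted p = 0.00173). Its relative Kcnab1 was thus called in the opposite direction. Beside these genes, the striatal marker Ppp1r1b differed by -0.13 (edgeR adjusted p = 3.29e-08) and the excitatory neuron marker Slc17a7 by -0.05 (adjusted p = 0.000433), both higher in males. With the same marker scores as covariates, which hold no excitatory neuron marker, Kcnt1, Kcnh4 and Kcnab3 were called at edgeR adjusted p = 2.001e-05, 0.000544 and 0.00125.

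The acid-sensitive leak channels Kcnk9 and Kcnk3 were both higher in males. Kcnk9 had medians of 29.6 and 31.7 CPM and a difference of -0.09 (edgeR adjusted p = 0.00545). Kcnk3 had medians of 32.5 and 33.8 CPM and a difference of -0.06 (adjusted p = 0.0451), which was lost under 5 of 14 alternative settings, within plate 1 among them (adjusted p = 0.0683). Kcnj12 and Kcnk3 are named beyond the naming rule, after their values were seen. Of the 20 partner proteins tested, 3 were higher in females (Lgi2, Adam22 and Dlg4, beside 4.07% of all genes) and Lgi3 was higher in males (beside 4.5%).

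Whether the sex difference was unequal between lines was tested by the interaction of line and sex. For this, 0 of the 76 genes were called by edgeR's quasi-likelihood test (beside 0.0382% of all genes), with 4 at an unadjusted p under 0.05 (beside 3.8%). By limma on log2(FPKM + 1) the counts were 0 and 3, the second beside 3.79% of all genes.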

How the data were processed

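RNA of the cortex was sequenced from 104 mice with stranded TruSeq libraries, per the labels' protocols. HTSeq 0.10.0, STAR 2.7.3a and the mouse builds mm10 and GRCm38 appear in the submitters' processing notes, while filters and the handling of strand are not given in the sources used here. The deposited counts are whole reads per RefSeq or Ensembl gene, made by the authors and not normalized. The deposited FPKM values are scaled by the authors for gene length and library depth, per the name of the table. The last line of the Ensembl count table was incomplete and was dropped (19563 genes remained, 68 of the 76).

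The deposited RefSeq counts entered edgeR 4.0.16 in R 4.3.3: TMM scaling, a filter on low counts (filterByExpr over groups of line and sex), glmQLFit and then glmQLFTest, with Benjamini-Hochberg adjustment over 15723 genes and a threshold of 0.05. Log2 CPM used a prior count of 2. A standard error is the log2 difference over the root of F. DESeq2 1.42.0, limma 3.58.1 on log2(FPKM + 1) or log2(FPKM + 0.1), other scalings, filters and left-out libraries were alternatives. The tests were tested on simulated data. P-values treat the mice as independent. Any 2 libraries differed by more than sampling noise (smallest chi-square per degree of freedom 1.94). Promoters are RefSeq's, on GRCm38.p6, and genomic spans come from the RefSeq gene table.

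The genes, lists and pairs were chosen with earlier results of these data known. Named are the highest and lowest genes per subfamily, up to 12 called between lines and 8 between sexes by smallest p, the highest and lowest called per line, the 5 widest and 5 narrowest spreads, the genes of the pairs and those beside the 0.5 CPM limit. Other genes are named only to give a level. Some genes, with the pairs that hold them, are not reported here and are left out of the plots of level, line and sex, while counts, medians and sums include them.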

Additional observations from a re-analysis of the deposited data

Results flagged for a closer look

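Within each line of 8 mice, the genes called there were searched for a single library far from the other 7 (gap to the nearest library against the whole range, at Dixon's 95% level). Of 29 groups, 6 were picked out. The 1 in 20 of Dixon's level is no measure of chance here. Genes of a line share its 8 libraries, and a far library can itself bring a gene among those called. Gsg1l male replicate 13 accounted for 4 of them. It held 39.8 CPM of Kcnh7 (68.1 to 91.3 in the other 7 mice), 29.5 CPM of Kcnj6 (43.96 to 50.9), 118 CPM of Kcnma1 (172 to 199) and 46.5 CPM of Kcnq3 (71.9 to 92.2). These are the same 4 genes whose Gsg1l calls were lost without it, beside 5 others. Gsg1l female replicate 14 held 115 CPM of Kcnab1 (78.5 to 92.6 in the others). Tbc1d8 male replicate 47 held 294 CPM of Kcna1 (327 to 358 in the others).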

How the results depend on the processing

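The calls between lines depended on which libraries entered. Without the Tbc1d8 and Gsg1l lines, 0 of 76 genes were called between lines (14 in all libraries). In females only, 0 were called by edgeR, with 9 at an unadjusted p under 0.05, beside 9.71% of all genes. In males only, 8 were called, with 21 at an unadjusted p under 0.05, beside 16% of all genes. Leaving out a Tbc1d8 library gave 12 to 15 called in that line (15 with all), beside 1361 to 1765 of all genes tested (1957 with all). Leaving out a Gsg1l library gave 6 to 18 in that line (14 with all): 6 without male replicate 13 and 7 without female replicate 13. Over all genes tested, 1004 to 2083 were called there (1641 with all). These left-out libraries were chosen after seeing the data, except Gsg1l female replicate 14. With marker scores removed, 8 of 20 pairs passed (13 without). By CPM, 11 of 17 subfamilies kept their highest gene. Under the other settings the counts stayed within 1.5 times the main ones: 11 to 15 between lines, 12 to 19 in Tbc1d8, 12 to 20 in Gsg1l and 8 to 15 between the sexes, with DESeq2 at 15 between lines and 11 between the sexes. No called gene changed direction. Calls were lost in 41 of 224 gene and setting combinations between lines, 8 of 210 in Tbc1d8, 18 of 196 in Gsg1l and 11 of 153 for sex. The cause was not tested.

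The titles give females and males of a line the same numbers, which no label says pair mice. Of 52 same-numbered pairs, 8 had a correlation of deviations over 0.1, and 33 libraries, not all, were closest to the one of their own number. With a replicate block, 13 genes were called between the sexes (11 without).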
